A study of Mus musculus with 4 samples.

Results

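Ctsb, Ctsl, Ctss, Ctsz, Ctsc, Ctsh, Lgmn, Ifi30 and Cst3, which encode lysosomal cysteine proteases, a lysosomal thiol reductase and the secreted inhibitor cystatin C, were followed through the immune cells of mouse melanomas. These 9 genes, of 32285 in the gene table, were taken as a list of names and not by a threshold on their values, and their unique molecular identifiers (UMIs, 1 per captured transcript) were summed in cells gated by marker genes. T cells had a Cd3e UMI, plasmacytoid DCs (pDCs) a Siglech UMI, mature DCs both Ccr7 and Fscn1, conventional type 1 DCs (cDC1s) Xcr1 or Clec9a, and monocytes/macrophages Lyz2 together with Ly6c2 or C1qb. No member gene was used to gate a cell.

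The cells came from s.c. tumors of YUMMER1.7, a mouse melanoma line, grown in male WT C57BL/6J mice of 7 to 8 weeks of age that received isotype control antibody, either of anti–PD-1 and anti-MIF, or the combination, written anti–PD-1/anti-MIF. A long cohort was treated for 2 weeks with 4 doses and taken on day 21, and a short cohort for 1 week with 2 doses and taken on day 14. Sorted cells were recombined as 80% CD45+ and 20% CD45- cells, each treatment arm was labeled with its own hashtag, and 1 library of 5′ single-cell RNA-seq per cohort held all 4 arms. Mice could therefore not be told apart, each cohort-by-treatment arm had no replicate, and arms were the units of every test, so that adjusted p-values measure the spread between arms. Arms with at least 5 cells of a gate were tested, which were 5 arms for pDCs, 4 for cDC1s and all 8 for the other gates. Both libraries also held cells of a further hashtag, named anti-PD1-MIF-DDT in the feature table and not listed as an arm. Those cells entered no test, and their values are given only in the closing sections. MIF is a cytokine that binds CD74, the invariant chain of MHC class II molecules, and PD-1 is an inhibitory receptor of T cells.

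Cathepsins are made as inactive precursors and mature in acidic endosomes and lysosomes, where they degrade proteins taken up by the cell. In antigen-presenting cells the same enzymes trim the invariant chain and produce the peptides that class II molecules display, with cathepsin S as the main late-acting invariant chain protease of DCs and macrophages. Legumain, the product of Lgmn, cleaves after asparagine and helps to activate cathepsins, the Ifi30 product GILT reduces disulfide bonds so that antigens unfold, and cystatin C blocks cysteine cathepsins.

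After removal of hashtag doublets (425 long, 626 short), cells with no hashtag and low-quality cells, 1671 cells of the 4 long arms and 3119 of the 4 short arms remained, with 15039110 and 19443650 UMIs. Cells kept under the hashtag not listed as an arm (322 long, 993 short) were set aside and are not in these totals. The long isotype, anti–PD-1, anti-MIF and combination arms held 204, 319, 879 and 269 cells, and their short counterparts 745, 1370, 556 and 448. The gates took 253 and 288 T cells (long and short), 21 and 29 pDCs, 91 and 41 mature DCs, 41 and 19 cDC1s, and 792 and 1822 monocytes/macrophages. A further 88 and 91 cells met several gates and were left out of them, and the remaining cells met none. Most of those left out carried cDC1 markers, as 31 long and 40 short cells met the cDC1 and monocyte/macrophage gates and 24 and 16 the cDC1 and pDC gates, so that more cells with Xcr1 or Clec9a were left out than kept. The pDC gate lost the same 24 and 16 cells, beside the 21 and 29 pDCs kept. In the long cohort more cells with Siglech were thus left out than kept, and all pDC values rest on the kept cells. The 2 libraries shared 20 cell barcodes, 12 of them among the kept cells. Depth differed between gates, with a median of 5087 (long) and 3980 (short) UMIs per T cell against 10952 and 6848 per monocyte/macrophage.

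Marker lists, which include the gating genes, followed the gate names. The summed level of the T cell list was 4654 CPM, UMIs of a gene per 1000000 gene UMIs of the cells summed, in long and 4064 in short T-gated cells, that of the pDC list 10189.6 and 13904 in pDCs, that of the mature DC list 13331 and 8943 in mature DCs, and that of the cDC1 list 2667 and 2276 in cDC1s. Monocyte/macrophage-gated cells held 9448 and 2150.4 CPM of the macrophage list and 3478 and 7041 of the monocyte list. The melanoma list reached no more than 4.85 CPM in any gate although CD45- cells had been added back. Neutrophil genes summed to 7041 CPM in the monocyte/macrophage gate of the long anti–PD-1/anti-MIF arm, against 49.0 to 1178 in the other 7 arms, and this is given again where those cells are compared. In cDC1s the macrophage list summed to 2961 CPM in the long anti-MIF arm, with 6 of its 7 genes present and C1qa the most abundant, against 0 to 6.13 CPM in the other 3 arms tested. The NK cell list summed to 547 CPM in the short anti–PD-1 cDC1s, where Gzma led, and to 13.3 CPM or less in the long ones. pDCs held 6343 and 6190 CPM of the monocyte list, most of it Ly6c2 (3539 and 3160 CPM), with 2 and 1 of its 5 genes at 0.

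Among the endopeptidases, Ctsl was highest in pDCs and was near 0 in the other DCs and in T cells. It measured 1504 and 1307 CPM in the long anti–PD-1 and anti-MIF pDCs and 1482, 1096 and 998 CPM in the short isotype, anti–PD-1 and anti–PD-1/anti-MIF pDCs, the 5 arms with at least 5 such cells. Monocytes/macrophages ranged from 178 to 329 CPM over 8 arms (median 242), so that no arm of the 2 gates overlapped. The log2 difference was 2.04 (SE 0.25, adjusted p = 4.18e-08, edgeR quasi-likelihood test). Of 4903 genes tested between pDCs and monocytes/macrophages, 38.8% passed the adjusted threshold of 0.05, 14.5% as higher in pDCs and 24.3% as lower. Pooled over arms, 412 Ctsl UMIs lay in 50 pDCs, whereas mature DCs held 9, cDC1s 7 and T cells 25. These pooled levels were 31.9-fold (95% counting interval 16.8 to 69.8), 26.1-fold (12.7 to 65.0) and 28.9-fold (19.5 to 44.7) lower than in monocytes/macrophages. With so few UMIs single arms moved the fitted differences, which went from -4.78 to -5.86 in cDC1s without the long anti-MIF arm and from -5.11 to -5.77 in mature DCs without the short isotype arm.

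Ctsb, an endopeptidase that also trims dipeptides from the ends of proteins, was high in the same 2 gates. Its level was 1495 ± 394 CPM in pDCs (SD, n = 5 arms) and 936 ± 172 CPM in monocytes/macrophages (n = 8), which overlapped between arms. The difference did not pass the test (log2 0.26, SE 0.18, adjusted p = 0.268), but it passed with DESeq2 (0.49, adjusted p = 0.0182), without TMM scaling (0.69, adjusted p = 0.00214) and with gate markers at 2 UMIs (0.48, adjusted p = 0.00257). Without the filter on low counts its sign turned (-0.17, adjusted p = 0.884). cDC1s (206 ± 112 CPM, n = 4), T cells (205 ± 55.2, n = 8) and mature DCs (169 ± 73.8, n = 8) lay far below, and neighbours among these 3 did not differ beyond their spread. Ctsb in cDC1s was 2.41 log2 units below monocytes/macrophages (SE 0.22, adjusted p = 2.62e-10), with 374 CPM in the long anti-MIF arm, which held the macrophage list at 2961 CPM, and 140 to 159 CPM in the other 3 arms.

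Ctss was highest in monocytes/macrophages, in which every arm (2014 to 3031 CPM, median 2330.4) exceeded every arm of the other 4 gates. cDC1s held 818 ± 676 CPM, pDCs 718 ± 126 CPM and mature DCs 715 ± 112 CPM, 3 levels that the test did not separate from one neighbour to the next. The wide spread in cDC1s came from the long anti-MIF arm at 1814 CPM, next to 386, 405 and 666 CPM in the other 3 arms. That is the cDC1 arm with the macrophage list at 2961 CPM, and the part of those transcripts in its values was not tested. T cells came last at 126 ± 40.02 CPM, 2.50 log2 units below mature DCs (SE 0.20, adjusted p = 5.10e-13).

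**Figure D1:**
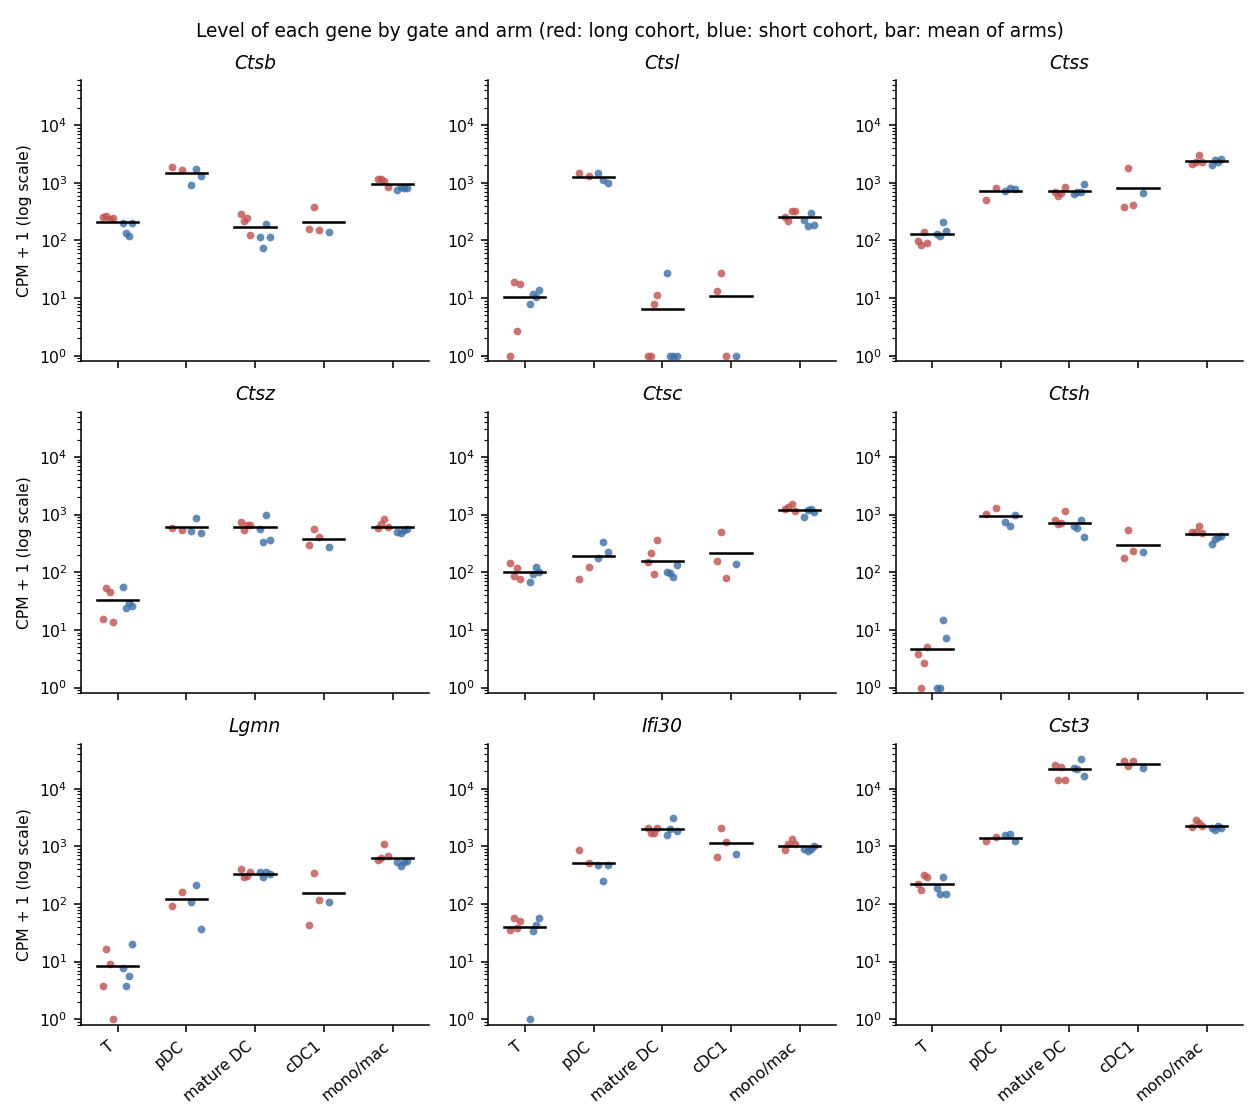
Level of each member gene in each lineage gate, as CPM + 1 on a log axis, with 1 point per arm of at least 5 gated cells (red long cohort, blue short cohort) and the mean over arms as a bar. Ctsl sits above 900 CPM in pDCs and below 30 CPM in mature DCs, cDC1s and T cells, and Cst3 sits between 13858 and 32600 CPM in mature DCs and cDC1s.

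The exopeptidases followed other orders. Ctsc encodes dipeptidyl peptidase I, which activates granzymes and neutrophil serine proteases. It was carried by monocytes/macrophages (920.4 to 1509 CPM over 8 arms, median 1218) with no overlap with any other gate. The remaining gates fell in the order cDC1 (218 ± 191 CPM), pDC (186 ± 101), mature DC (154 ± 95.6) and T (99.8 ± 25.1), and no neighbours in that order differed by the test. The cDC1 mean rests on the long anti-MIF arm at 500.2 CPM, next to 78.4 to 153 CPM in the other 3 arms, and this is again the arm with the macrophage list at 2961 CPM. The log2 difference of Ctsc in cDC1s from monocytes/macrophages was -2.67 over all arms, -3.39 without that arm, and -1.01 when cells of several gates were assigned by gate order. Ctsc in T cells was 3.75 log2 units below monocytes/macrophages, and its difference from pDCs was the only member difference between T cells and pDCs that did not pass (8 of 9 passed, beside 37.8% of all genes).

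Ctsz, which removes single residues from the carboxyl end of peptides, was level across mature DCs (601 ± 205 CPM), pDCs (599 ± 163) and monocytes/macrophages (596 ± 111). None of the neighbours among these 3 differed (adjusted p = 0.547 and 0.184), and cDC1s were lower at 383 ± 129 CPM (0.79 log2 units below monocytes/macrophages, SE 0.23, adjusted p = 0.00893). The cDC1 and monocyte/macrophage arms overlapped, and this call was lost without the long anti–PD-1 arm or with gate order. Ctsh, an aminopeptidase, was higher in pDCs (938 ± 263 CPM) and mature DCs (717 ± 213) than in monocytes/macrophages (453 ± 101). These differences were 0.78 log2 units for pDCs (SE 0.22, adjusted p = 0.00515) and 0.48 for mature DCs (SE 0.18, adjusted p = 0.0224), and arms overlapped in both cases, the lowest pDC arm (632 CPM) lying below the highest monocyte/macrophage arm (644 CPM). The mature DC call for Ctsh was lost without the long anti–PD-1/anti-MIF arm (0.43, adjusted p = 0.0543), without the filter and in either cohort alone, and the pDC call without the filter (0.34, adjusted p = 0.423) and in the long cohort alone. T cells held 7 Ctsh UMIs in all, a pooled level 186-fold below monocytes/macrophages (90.1 to 462).

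Lgmn was highest in monocytes/macrophages, at 449 to 1098 CPM over 8 arms (median 558), with the long anti-MIF arm at the top. Mature DCs were next and narrowly spread (335 ± 38.7 CPM, 287 to 400 over 8 arms), so the 2 gates did not overlap, and they were 1.10 log2 units lower (SE 0.21, adjusted p = 2.34e-05). cDC1s (151 ± 130 CPM) were 1.23 log2 units below mature DCs (adjusted p = 0.00156), with the long anti-MIF arm, the one with the macrophage list at 2961 CPM, at 340 CPM and the other 3 arms at 42.9 to 118 CPM. Against monocytes/macrophages their log2 difference was -2.33 over all arms, -2.80 without that arm, -1.25 with gate order and -3.36 with gate markers at 2 UMIs. pDCs (122 ± 67.0 CPM) did not differ from cDC1s. T cells held 19 Lgmn UMIs, 101-fold below monocytes/macrophages when pooled (64.9 to 168).

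Ifi30 had its highest level in mature DCs, at 1579 to 3149.5 CPM over 8 arms with a median of 1898. That was 0.79 log2 units above monocytes/macrophages (1009 ± 175 CPM; SE 0.18, adjusted p = 0.000394) and 0.79 above cDC1s (1157 ± 654 CPM; SE 0.25, adjusted p = 0.0105). cDC1s and monocytes/macrophages did not differ (0.00, SE 0.25), pDCs were lower at 515 ± 224 CPM, and T cells held 38.5 ± 18.1 CPM. The pDC mean leaves out arms with fewer than 5 pDCs, among them long isotype (4 cells, 441 CPM) and long anti–PD-1/anti-MIF (2 cells, 3481 CPM). With all pDCs pooled, Ifi30 was 1.31-fold lower than in monocytes/macrophages (1.16 to 1.49). By cohort this was 1.07-fold (0.93 to 1.25) in the long and 2.05-fold (1.63 to 2.61) in the short. The cDC1 level again ranged widely, from 644 CPM in the long anti–PD-1 arm to 2068 CPM in the long anti-MIF arm, and without the latter arm the difference from monocytes/macrophages was -0.33 log2 units.

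Cst3, the inhibitor, separated the conventional DCs from every other gate. Among long cDC1s it measured 30259 CPM with anti–PD-1, 24445 CPM with anti-MIF and 29604 CPM with the combination, and it measured 22939 CPM in the short anti–PD-1 cDC1s. Mature DCs ranged from 13858 to 32600 CPM (median 22607), and monocytes/macrophages from 1939 to 2913 CPM (median 2224). All arms of both conventional DC gates exceeded all arms of monocytes/macrophages, by 3.51 log2 units in cDC1s (SE 0.17, adjusted p = 4.97e-17) and 3.01 in mature DCs (SE 0.15, adjusted p = 2.40e-18). The cDC1 level was 0.50 log2 units above that of mature DCs (SE 0.18, adjusted p = 0.0191) with overlapping arms. pDCs held 1414 ± 177 CPM, below every arm of monocytes/macrophages, and T cells 224 ± 71.9 CPM.

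Read by cell type, each antigen-presenting gate had its own combination. Against monocytes/macrophages, all 9 members were lower in T cells (65.7% of 4903 genes passed, 31.6% as higher and 34.1% as lower). T cells were also lower than mature DCs in 6 members (62.4% of genes passed, 34.5% as higher and 28% as lower). They were lower than cDC1s in 7 members (40.7% of genes passed, 19.2% as higher and 21.5% as lower). In pDCs, Ctsl and Ctsh were higher and Ctss, Ctsc, Lgmn, Ifi30 and Cst3 lower, of which Ctsh and Ifi30 missed the threshold in the long cohort alone (adjusted p = 0.132 and 0.0583). The Ifi30 call rests on arms of at least 5 pDCs, and with all pDCs pooled the difference was 1.31-fold. In mature DCs, Cst3, Ifi30 and Ctsh were higher and Ctsl, Ctsc, Ctsb, Ctss and Lgmn lower (60.8% of genes passed, 23.4% as higher and 37.5% as lower). In cDC1s, Cst3 alone was higher, Ifi30 was level and the other 7 were lower (27.3% of genes passed, 10.5% as higher and 16.8% as lower). Of these cDC1 calls, Ctsz and Ctsh were lost without the long anti–PD-1 arm (-0.58 and -0.59, adjusted p = 0.110 and 0.135), and Ctsh also without the long anti–PD-1/anti-MIF arm (-0.67, adjusted p = 0.0742). Both were also lost with gate order (-0.34 and -0.35, adjusted p = 0.125 and 0.174). Mature DCs exceeded cDC1s in Ctsz (0.60), Ctsh (1.33), Lgmn (1.23) and Ifi30 (0.79 log2 units), where 44.2% of genes passed, 18.6% as higher and 25.6% as lower. pDCs exceeded mature DCs in Ctsb (2.91) and Ctsl (7.15 log2 units by the fit, over 9 mature DC UMIs) and were lower in Lgmn (-1.89), Ifi30 (-2.05) and Cst3 (-4.02). In that comparison 45.5% of genes passed, 23.1% as higher and 22.3% as lower. Against cDC1s, pDCs were higher in Ctsb (2.67), Ctsl (6.83 by the fit, over 7 cDC1 UMIs) and Ctsh (1.62) and lower in Ifi30 (-1.26) and Cst3 (-4.52). There 25.2% of genes passed, 10.9% as higher and 14.4% as lower.

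The size of several called differences from monocytes/macrophages depended on which cells were counted, while their direction and calls held. When cells of several gates were assigned by gate order, the T cell differences shrank from -7.58 to -4.28 log2 units for Ctsh, from -6.69 to -4.35 for Lgmn, from -4.89 to -3.70 for Ctsl and from -3.75 to -2.98 for Ctsc. Those of Ctss, Ctsz, Ifi30 and Cst3 in T cells became -3.52, -3.51, -3.71 and -2.49. In cDC1s the same assignment gave -1.68 for Ctsb, -2.11 for Ctsl, -0.82 for Ctss and 2.74 for Cst3, and in mature DCs -4.38 for Ctsl. With cells thinned to 2000 UMIs, Ctsl was -3.96 in T cells and -2.58 in cDC1s, Lgmn was -3.60 in pDCs and -3.58 in cDC1s, and Ifi30 was -2.18 in pDCs. Ctsh in T cells was -8.29 without the short anti-MIF arm, -8.24 in the long and -6.77 in the short cohort alone. In the long cohort alone Ctsc in pDCs was -4.21, and in the short cohort alone Ctsl in mature DCs was -4.25. All 7 Ctsl UMIs of cDC1s came from long cells. In the short cohort alone the fit for Ctsl in cDC1s was therefore -10.39 over 0 UMIs, and it measures no fold. With gate markers at 2 UMIs Ctsl in cDC1s was -5.63.

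The scaling moved the pDC contrast as a whole. The median log2 difference of all genes between pDCs and monocytes/macrophages was -0.227 with TMM scaling, 0.173 without it and 0.0421 with DESeq2. The called genes split into 711 higher and 1191 lower with TMM (37.4% higher), 1156 and 805 without it (58.9% higher), and 1024 and 908 with DESeq2 (53.0% higher). For mature DCs the medians were -0.252, -0.143 and -0.103, and for T cells -0.0318, 0.142 and 0.0415. The direction of each called member was the same under the 3 scalings, and the uncalled Ctsz difference in pDCs went from -0.39 to 0.04 without TMM.

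Where the UMIs of a gene lay in the tumor depended on gate size as well as on level. Monocytes/macrophages were 47.4% of long and 58.4% of short cells and 59.03% and 68.0% of UMIs, and held between 68.2% and 86.6% of the UMIs of each member but Cst3. For Cst3 that share was 28.1% in the long and 52.1% in the short cohort, with 23.4% and 12.3% in mature DCs and 17.4% and 8.9% in cDC1s. pDCs, 1.26% of long and 0.930% of short cells, held 5.24% and 5.25% of all Ctsl UMIs.

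**Figure D2:**
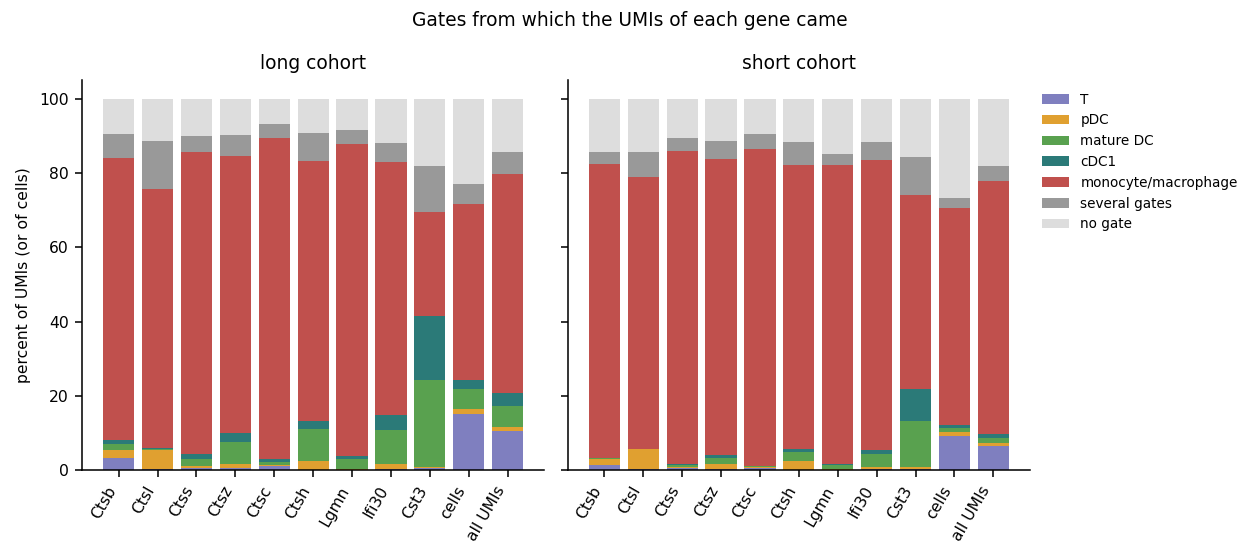
Share of each member's UMIs, in percent, that came from each gate in the long and the short cohort, beside the gates' share of cells and of all UMIs. Monocytes/macrophages supply most UMIs of each gene except Cst3 in the long cohort, where they supply 28.1%.

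Shares of cells with a UMI were taken from cells thinned to 2000 UMIs each. A Ctsl UMI was found in 85.0% of long and 70.4% of short pDCs, in 36.0% and 27.05% of monocytes/macrophages, and in 0.881% and 1.21% of T cells (2 of 227 and 3 of 247), the gate set beside the others as a low reference. Free RNA was not measured, so the part of it in these shares is unknown. Mature DCs had 1.11% and 2.63%, 1 cell in each cohort, with exact binomial intervals of 0.0281% to 6.04% and 0.0666% to 13.8% that hold the T cell shares. A Ctsl UMI was found in 0 of 19 short cDC1s, which allows up to 17.6% of such cells to carry a UMI at this depth (exact binomial bound) and sets no limit on cells that express the gene. For Ctsh the shares were 71.1% and 68.4% of mature DCs, 64.8% and 48.6% of monocytes/macrophages, and 0.441% and 0.405% of T cells. For Lgmn they were 34.4% and 42.1% of mature DCs, 68.7% and 51.0% of monocytes/macrophages, and 0.441% and 0.810% of T cells. Before thinning, the median depths were 6519 and 6073 UMIs per pDC, 9065 and 7268 per mature DC and 12763 and 11130 per cDC1, beside those given for T cells and monocytes/macrophages, and 26 long and 41 short T cells were too shallow to be thinned.

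The rest of the lysosomal and class II genes, in fixed lists, were compared across the same gates. In mature DCs most of the lysosomal genes were lower. Of 17 lysosomal membrane and proton pump genes tested, 12 were lower and 2 higher than in monocytes/macrophages, and of 16 hydrolases 11 were lower and 1 higher, with medians of -1.19 and -1.35 on the log2 scale beside -0.252 for all genes. Of all genes, 37.5% were lower and 23.4% higher. Cd68 fell by 4.69 (a macrophage-associated lysosomal glycoprotein), Ctsd by 4.75 (the aspartic protease), Ctsa by 4.29 and Grn, which encodes progranulin, by 3.29. Cd63, a tetraspanin of late endosomes, was 4.96 log2 units higher in mature DCs and Lamp1 0.47. Of the 10 class II genes, H2-DMb1 (-3.92), H2-DMa (-2.58), H2-Ab1 (-1.15) and Ciita (-0.86) were lower and H2-Oa (1.97) and H2-DMb2 (1.72) higher. H2-DM loads peptides onto class II molecules, and H2-O restrains it.

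cDC1s differed from mature DCs in their class II genes. Of the 10 class II genes, 9 were higher in cDC1s than in monocytes/macrophages (median 1.58 beside -0.0772 for all genes, of which 10.5% were higher and 16.8% lower), led by H2-Oa (4.20), H2-Ob (4.06) and H2-DMb2 (2.48). Tested directly, 9 of the 10 were lower in mature DCs than in cDC1s (median -2.32 beside -0.165 for all genes, of which 25.6% were lower). Among 17 membrane and pump genes 9 were lower and 1 higher in cDC1s, and among 16 hydrolases 4 were lower and 3 higher, among the latter Arsb (3.77) and Ppt1 (2.08), which encode enzymes that degrade glycosaminoglycans and lipid-modified proteins. Ctsd was 3.56 log2 units lower and Lamp1 2.97 lower. In mature DCs against cDC1s, 5 of 17 membrane and pump genes were lower and 3 higher, and 9 of 16 hydrolases were lower and 1 higher. Of all genes, 25.6% were lower and 18.6% higher in that comparison.

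In pDCs the list of other cathepsins leaned upward. Of 5 other cathepsins tested, of 8 listed, Ctsw (4.85), Ctse (2.49) and Ctso (2.19) were higher and Ctsd (-1.23) lower than in monocytes/macrophages. Their median was 2.19 beside -0.227 for all genes, of which 14.5% were higher and 24.3% lower. The list counts in pDCs are with TMM scaling, and the whole pDC contrast moved with the scaling. Hydrolases were mixed (5 higher, 6 lower of 16, the latter including Acp5, whose 5 pDC UMIs all lay outside the arms fitted), and 8 of 17 membrane and pump genes were lower, Lamp1 by 2.77, while the cholesterol transporter gene Npc1 was 2.39 higher. Class II genes were lower for 6 of 10, among them H2-Eb1 (-1.62) and H2-Ab1 (-1.57), and H2-Oa was 3.56 higher. No Cd63 UMI was found in pDCs, a pooled level at least 5.96-fold lower with a floor of 3 counts.

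In T cells all 17 membrane and pump genes (median -1.77) and 13 of 16 hydrolases (median -2.45) were lower, against a median of -0.0318 for all genes, of which 34.1% were lower and 31.6% higher. Psap, which encodes the precursor of the saposins, fell by 4.34 log2 units, Grn fell by 4.26 and Cd68 fell by 6.36. Among the genes that rose were Ctsw (8.57), a cathepsin of cytotoxic lymphocytes, and Cst7 (5.68), which encodes cystatin F, an inhibitor found in cytotoxic cells, together with Arsb (3.80). Class II genes were lower for 9 of 10, H2-Eb1 by 7.90.

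**Figure D3:**
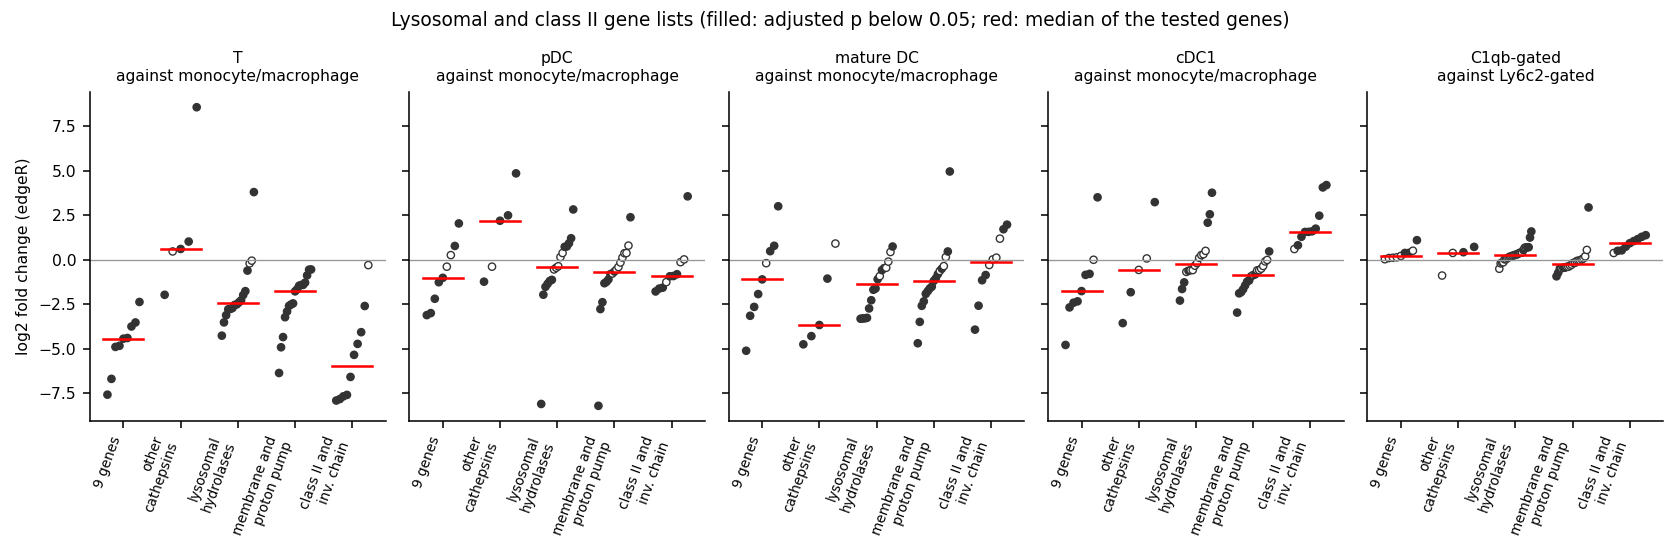
Log2 difference of T cells, pDCs, mature DCs and cDC1s from monocytes/macrophages and of C1qb-gated from Ly6c2-gated cells, 1 point per tested gene of the 9 members and of 4 lists, filled where the adjusted p is below 0.05, with list medians in red. Class II genes lie above 0 in cDC1s (9 of 10 called higher), and membrane and pump genes lie below 0 in T cells (17 of 17 called lower), and the lowest pDC points, Cd63 and Acp5, had 0 UMIs in the pDC arms fitted.

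Within the monocyte/macrophage gate, cells with C1qb and no Ly6c2 UMI (269 long, 184 short) were compared with cells with Ly6c2 and no C1qb (306 long, 1313 short), paired by arm. C1qb encodes a complement subunit made by macrophages, and Ly6c2 marks inflammatory monocytes. Lgmn was higher in the C1qb-gated cells of all 8 arms, at 728 to 1369 CPM (median 971) against 381 to 595 CPM (median 430.3), with no overlap. The difference was 1.10 log2 units (SE 0.13, adjusted p = 3.43e-07), where 26.6% of 7761 genes passed, 11.4% as higher and 15.2% as lower. It passed under each alternative tried.

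The other members moved less. Ctsz (724 ± 168 against 517 ± 73.6 CPM) and Ctsh (531 ± 84.5 against 389.8 ± 81.8 CPM) were also higher in 8 of 8 arms, by 0.39 (SE 0.13, adjusted p = 0.0261) and 0.38 log2 units (SE 0.13, adjusted p = 0.0312). Both calls were lost in several alternatives, among them a stricter hashtag quantile (adjusted p = 0.0701 and 0.0527) and, for each, leaving out the long anti-MIF arm (0.0722 and 0.0674), the short isotype arm (0.0817 and 0.0861) or the short anti-MIF arm (0.0581 and 0.0680). The Ctsz call was lost also without the long anti–PD-1 arm (0.0816), and the Ctsh call without the long anti–PD-1/anti-MIF arm (0.0507) or the short anti–PD-1 arm (0.0768). Ctsl was 0.51 higher (adjusted p = 0.0647) and was higher in 5 of 8 arms, a difference that passed without TMM (0.57, adjusted p = 0.0256) and without the arm block (0.58, adjusted p = 0.0434), and Ctsb, Ctss, Ctsc, Ifi30 and Cst3 differed by 0.22 or less and did not pass. In the Ly6c2-gated cells the neutrophil list summed to 3285 CPM in the long and 562 CPM in the short cohort, its most abundant gene being S100a8, and by arm to 14476 CPM in the long anti–PD-1/anti-MIF arm against 95.8 to 1689 CPM in the other 7. Without the cells that carried markers of other lineages the Lgmn difference still passed and the Ctsh difference did not (0.35, adjusted p = 0.0569).

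**Figure D4:**
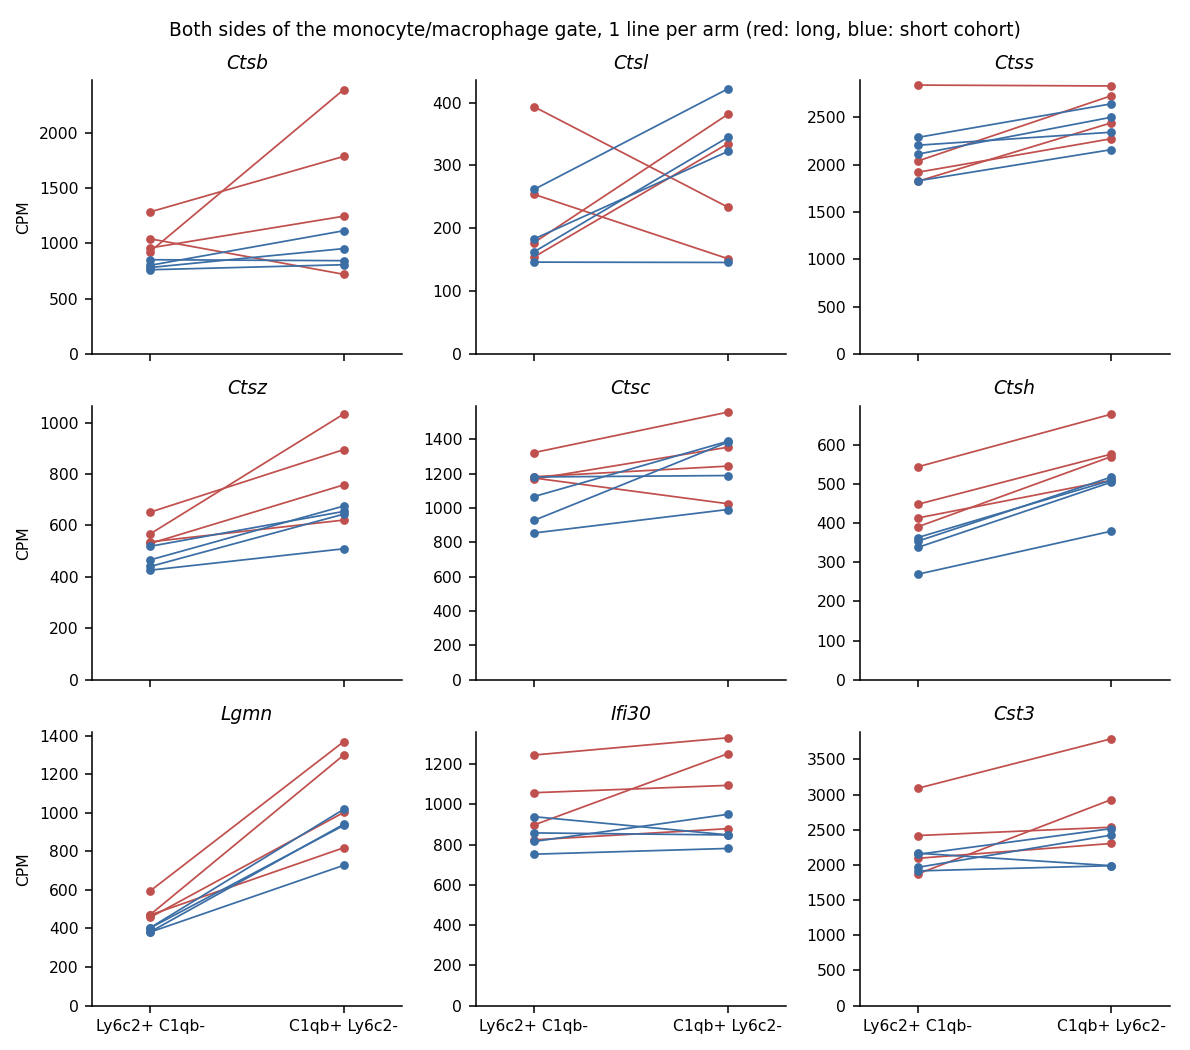
Level of each member in C1qb-gated and Ly6c2-gated cells, in CPM on an axis from 0, with a line joining the 2 values of each of the 8 arms (red long cohort, blue short cohort). For Lgmn all 8 lines rise from the Ly6c2-gated to the C1qb-gated cells, from a mean of 445 to 1014 CPM.

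Of all 7761 genes tested, 11.4% were higher and 15.2% lower in C1qb-gated cells. Class II genes were higher in C1qb-gated cells for 8 of 9 tested (median 0.93, all genes -0.0282), with H2-Eb1 at 1.38 and H2-Ab1 at 1.16. Of 25 hydrolases 6 were higher and none lower, Acp5 (1.59), the lysosomal phospholipase gene Pla2g15 (1.25), Tpp1 (0.71) and Hexa (0.70) among them. Cd63 (2.94) and Ctsd (0.73) were higher, whereas 5 of 20 membrane and pump genes were lower, among them the proton pump subunit gene Atp6v1b2 (-0.93) and Psap (-0.44). The sorting receptor genes Igf2r (-2.72) and Sort1 (-1.70) were lower.

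The treatment comparisons asked whether anti-MIF or anti–PD-1 went with a different level of these genes in a given gate. Lgmn in monocytes/macrophages of the long cohort was 567.9 CPM with isotype and 1098 CPM with anti-MIF, and 633 CPM with anti–PD-1 and 682 CPM with anti–PD-1/anti-MIF. In the short cohort the same pairs were 542 and 538 CPM, and 449 and 549 CPM. The long anti-MIF arm stood apart and the other arms with and without anti-MIF overlapped. The fit over all 8 arms gave 0.29 log2 units (SE 0.16, adjusted p = 0.751), and its difference between cohorts 0.44 (SE 0.28, adjusted p = 0.598). The share of C1qb-gated cells among monocytes/macrophages was also highest in the long anti-MIF arm, at 8.97% with isotype, 44.3% with anti-MIF, 15.8% with anti–PD-1 and 26.98% with the combination among the long arms. The short arms, in the same order, had 23.8%, 10.2%, 4.24% and 3.67%. The long arms ranked alike by this share and by their Lgmn levels, and the short arms did not. Within C1qb-gated cells Lgmn was 819 and 1369 CPM in the long isotype and anti-MIF arms, and 1299.9 and 1002 CPM in the long anti–PD-1 and anti–PD-1/anti-MIF arms. The part of this share in the arm difference was not tested.

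Ctsl was the only member that was higher with anti-MIF in all 4 matched pairs of monocyte/macrophage arms. It was 255 CPM with isotype and 329 CPM with anti-MIF, and 217 CPM with anti–PD-1 and 322 CPM with anti–PD-1/anti-MIF in the long cohort. In the short cohort it was 229.6 and 303 CPM, and 178 and 188 CPM. The counting intervals of that last pair overlapped (167 to 189 and 167 to 210 CPM). The share of all genes that were higher in all 4 pairs was not counted. The arms with and without anti-MIF overlapped, and the fit gave 0.31 log2 units (SE 0.15, adjusted p = 0.694). In the Ly6c2-gated and C1qb-gated subsets Ctsl was higher in 2 of 4 pairs each. The neutrophil list stood at 7041 CPM in the long anti–PD-1/anti-MIF arm of this gate, and its part in the Ctsl value was not tested.

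No gene passed the adjusted threshold for anti-MIF in monocytes/macrophages with edgeR (percent called 0 of 9495 genes tested, 687 with an unadjusted p below 0.05, and 10 by DESeq2), and none for anti–PD-1 (0 of 9495, 495 unadjusted and 2 by DESeq2). The members' anti-MIF differences ranged from -0.17 for Ctsb to 0.31 for Ctsl. Their anti–PD-1 differences ranged from -0.30 for Ctsl (SE 0.15, adjusted p = 0.912) to 0.06 for Ctss. In T cells 6 members were tested and none passed, with 0.53 for Cst3 (SE 0.18, adjusted p = 0.9992) as the highest value, and 0.0376% of 5318 genes passed. Those 2 genes, named because they were the only calls, were Penk, which encodes proenkephalin (3.81), and the T cell receptor segment Trav8d-2 (6.29). The count of calls fell to 1 with DESeq2 and to 0 with gate markers at 2 UMIs, with gate order, with the stricter hashtag quantile or without the short isotype arm. In mature DCs 8 members were tested, their differences ran from -0.04 to 0.26 with SEs of 0.20 to 0.40, and 0 of 1661 genes passed (48 unadjusted, 0 by DESeq2). Treatment was not fitted in pDCs and cDC1s, of which 5 and 4 arms had enough cells.

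**Figure D5:**
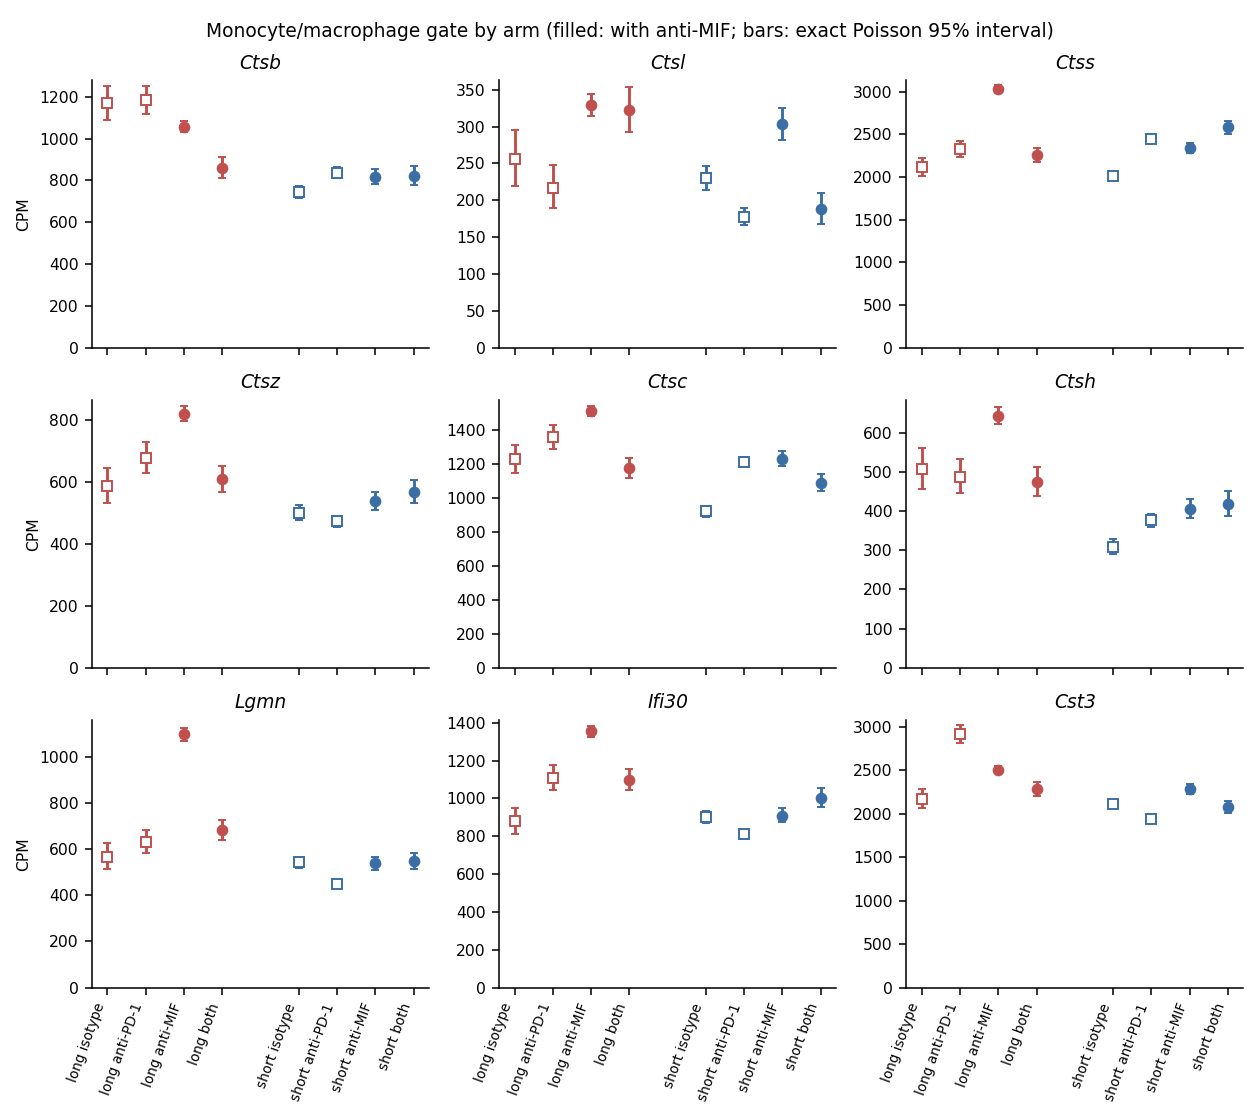
Level of each member in monocytes/macrophages in the 8 arms, in CPM from 0, with bars on the points for the 95% counting interval and filled points for arms with anti-MIF (both on the axis stands for anti–PD-1/anti-MIF). Lgmn in the long anti-MIF arm lies at 1098 CPM, above the 449 to 682 CPM of the other 7 arms.

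The genes with the most similar profile were found by Pearson correlation of log2(CPM + 1) over the 33 gate-by-arm sums, among 3174 genes with a mean of at least 50 CPM. This is a description, since the sums share gates and libraries. For Ctsl they were Zeb2 (0.91), Lair1 (0.91) and Arhgap24 (0.89), and Ctsb shared Arhgap24 (0.89) and had Slpi (0.90) and Ctsl itself (0.88). Ctss was closest to Lgmn (0.91), Atp6v0c (0.91) and Sirpa (0.90), and Lgmn to Ctsz, Ifngr2 (both 0.92) and Ftl1 (0.91). For Ctsc they were Ccl12, Clec4e (both 0.91) and Sirpb1c (0.90), for Ctsz Gpx1, Syk and Ifngr2 (0.93 to 0.94), and for Ctsh Csf2rb (0.97), Ccdc88a (0.96) and Skap2 (0.94). Ifi30 lay closest to Plekho1 (0.93), H2-Eb1 (0.92) and Arpc3 (0.91). Cst3 lay closest to Atox1 (0.93) and to Zfp366 and Batf3 (both 0.92), transcription factor genes of the DC lineage. Between cells of the monocyte/macrophage gate thinned to 2000 UMIs, the median Spearman correlation over 36 gene pairs was 0.121 in the long and 0.0690 in the short cohort, and the highest were 0.294 (Ctss with Lgmn, long) and 0.267 (Ctss with Ctsc, short). Such counts of few UMIs per cell limit any correlation between cells.

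The 9 genes lie on 8 chromosomes. In the GRCm38 annotation Ctsb is at chr14:63122462-63145923, Ctsl at chr13:64359337-64370890, Ctss at chr3:95526786-95556403, Ctsz at chr2:174427493-174439039, Ctsc at chr7:88278085-88310888, Ctsh at chr9:90054152-90076089, Lgmn at chr12:102394084-102439813, Ifi30 at chr8:70762774-70766663 and Cst3 at chr2:148871722-148875692. Promoter windows from RefSeq on GRCm38 (250 bases before to 50 after a start site) were matched for 7 of the 9 genes, with 8 windows. The letters CACGTG, the core of the E-box that lysosomal gene regulators of the TFEB family recognise and a palindrome that reads the same on both strands, were in the windows of 3 of these 7 genes, Ifi30, Lgmn and Ctsl, and in 7.15% of all 32851 promoters. GAGGAAGT, a PU.1-type motif searched on both strands, was in those of Ctss and Ctsc (3.20% of all promoters), and TTCNNNGAA, a STAT-type motif, in that of Ctsc (8.30%). The Ifi30 and Lgmn windows are shown because these members were highest in mature DCs and in C1qb-gated macrophages. Each is 60 bases of the gene's own minus strand with the E-box core in capitals. The Ifi30 stretch, chr8:70766827-70766886, lies 5′ of the start site and overlaps an exon of 6330537M06Rik. The Lgmn stretch, chr12:102439109-102439168, precedes a second annotated start site and lies in an intron of Lgmn.
Ifi30: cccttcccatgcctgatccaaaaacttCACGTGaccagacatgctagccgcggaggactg
Lgmn: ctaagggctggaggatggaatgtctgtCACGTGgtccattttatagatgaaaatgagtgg
A match to these letters is a description of the sequence and no measurement of binding.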

How the data were processed

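The authors deposited UMI counts per gene, hashtag and cell barcode (5′ chemistry, barcodes that Cell Ranger called as cells), without normalization. The submitters' processing notes name Cell Ranger 7.1.0, Seurat 5.1.0, R 4.3.2 and mm10. Here hashtags were assigned with Seurat 5.3.0 (HTODemux, quantile 0.99), and cells with 200 to 5000 genes and at most 5% mitochondrial UMIs were kept. Hashtag doublets were removed, whereas doublets within an arm were not searched for. UMIs were summed per gate and arm where at least 5 cells were present and tested in edgeR 4.0.16 (R 4.3.3, quasi-likelihood test, TMM, filterByExpr, Benjamini-Hochberg), with arm as a block between gates and with anti-MIF, anti–PD-1 and cohort as terms between arms. Alternatives were DESeq2 1.42.0, no TMM, no filter, stricter gates, gate order for cells of several gates, other hashtag and quality limits, thinning, either cohort alone, no arm block and each arm left out. Leaving out cells with markers of other lineages was chosen after seeing the data. Tables were made with Python 3.11.15, NumPy 2.4.6, pandas 2.3.3 and SciPy 1.17.1.

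The members and lists were chosen with earlier results of these data known. The text names every member, up to 3 list genes per direction and list by fold change among those called, the 3 most similar genes per member, and further called list genes chosen after their values were seen. Intervals cover counting error only. On simulated counts, for mature DCs against monocytes/macrophages (3824 genes), the test found 100.0% of genes altered by 2 log2 units and 81.2% of those altered by 1, with 10 false calls. For anti-MIF in monocytes/macrophages (9434 genes) it found 97.0% and 66.3%, with 4, in T cells (5264 genes) 93.8% and 42.7%, with 4, and in mature DCs (1487 genes) 97.6% and 55.4%, with 4. Positions came from GENCODE vM21 and promoters from RefSeq.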

Additional observations from a re-analysis of the deposited data

Results flagged for a closer look

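In 63 groups of 4 to 8 arms (a member in a gate), the highest or lowest arm was tested for its distance from the rest by Dixon's criterion. It stood apart in 14 groups. The nominal rate of about 1 in 20 holds for independent groups of normally distributed values. Here the C1qb-gated and Ly6c2-gated cells are part of the monocyte/macrophage gate, the members share cells, and some groups hold few UMIs. The count of 14 therefore cannot be set against that rate. No cause was tested for any of these.

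In monocytes/macrophages, Lgmn in the long anti-MIF arm was 1098 CPM, with 449 to 682 CPM in the other 7 arms. The same arm stood apart in the Ly6c2-gated cells, with Lgmn at 595 CPM (381 to 471 in the others) and Ctss at 2841 CPM (1824 to 2288). Also in Ly6c2-gated cells, Ctsl in the long anti–PD-1/anti-MIF arm was 393 CPM (146 to 262), in an arm where these cells held the neutrophil list at 14476 CPM (95.8 to 1689 in the others), and Cst3 in the long anti–PD-1 arm 3089 CPM (1871 to 2418). In cDC1s the 11 cells of the long anti-MIF arm held 374 CPM of Ctsb (140 to 159 in the other 3 arms) and 540.3 CPM of Ctsh (178 to 229). The macrophage list summed to 2961 CPM in these cells and to 6.13 CPM or less in the other 3 arms.

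Among mature DCs, Ifi30 in the 5 cells of the short anti-MIF arm was 3149.5 CPM (1579 to 2109), Ctsc in the long anti–PD-1/anti-MIF arm 365 CPM (82.9 to 214), and Ctsl in the short isotype arm 26.5 CPM from 4 UMIs (0 to 10.1). Among pDCs, Ctss in the long anti–PD-1 arm was 501 CPM (714 to 801), and Ctsz in the 5 cells of the short anti–PD-1 arm 885 CPM (487 to 575). Among T cells, Ctsh in the short anti-MIF arm was 14.1 CPM from 3 UMIs (0 to 6.33), and Ifi30 in the 33 cells of the short isotype arm 0 CPM (32.5 to 56.9).

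In C1qb-gated cells Ctsb moved in opposite directions with anti-MIF in the 2 cohorts, lower in both long pairs and higher in both short pairs, with a median log2 ratio of -0.14 over the 4 pairs. This difference between cohorts was not tested.

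A 5th hashtag, named anti-PD1-MIF-DDT in the feature table and not listed as an arm in the labels, was present in both libraries. Its monocytes/macrophages (213 long, 634 short) exceeded the isotype arm, beyond counting error, in Ctss (2631 against 2114 CPM) and Ctsc (1537 against 1225 CPM) in the long cohort, and in Ctsb (923 against 746 CPM), Ctss (2223 against 2014 CPM) and Ctsh (365 against 309 CPM) in the short cohort. They were lower beyond counting error in Cst3 in the long cohort (1833 against 2171 CPM) and in Ctsl in the short cohort (179.6 against 229.6 CPM). In the short cohort the anti–PD-1, anti-MIF and combination arms were also above isotype in Ctss, at 2450, 2335 and 2582 CPM. In the same order their Ctsh was 376, 407 and 418 CPM and their Ctsb 837, 817 and 823 CPM. Their Ctss and Ctsh were above those of the 5th hashtag, and their Ctsb below. Among the long arms Ctss was 2325, 3031 and 2255 CPM and Ctsc 1355, 1509 and 1174 CPM. Long Cst3 was 2913, 2502 and 2277 CPM, and short Ctsl 178, 303 and 188 CPM. No spread between arms stands behind these values.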

How the results depend on the processing

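Between gates, the number of genes passing the threshold was sensitive to the filter and to depth. Without the filter on low counts it was 6480 for T cells, 2994 for pDCs and 5018 for mature DCs against monocytes/macrophages, and with cells thinned to 2000 UMIs 1102, 855 and 1054, with 337 for cDC1s and 910 for C1qb-gated against Ly6c2-gated cells. The long cohort alone gave 1005 for pDCs and 1112 for the C1qb comparison, and the short cohort alone 744 for cDC1s and 1141 for the C1qb comparison. Leaving out an arm gave 2948 to 3095 for T cells, 1550 to 1875 for pDCs, 2652 to 2851 for mature DCs, 954 to 1320 for cDC1s and 1505 to 2051 for the C1qb comparison. For anti-MIF in monocytes/macrophages the count was 10 with DESeq2, 66 without the filter, 1 in the long and 154 in the short cohort alone, and 0 to 2 with an arm left out. For anti–PD-1 it was 2 with DESeq2, 51 without the filter, 254 in the short cohort alone and 0 with any arm left out. For anti-MIF in T cells it was 1 with DESeq2, with thinning and in the long cohort alone, 37 without the filter, 12 in the short cohort alone, 0 with gate markers at 2 UMIs, with gate order or with a stricter hashtag quantile, and 0 to 4 with an arm left out, and in mature DCs 4 without the filter. In either cohort alone and with an arm left out, some gates or treatments were left with few or single arms, assumed to vary like the rest.

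None of the member differences that changed sign had passed the threshold as reported, but Ctsb in pDCs passed with DESeq2 (0.49), without TMM (0.69) and with gate markers at 2 UMIs (0.48), and Ctsz in pDCs without the filter (-0.82) and with gate markers at 2 UMIs (-0.46). Ifi30 in cDC1s, level with monocytes/macrophages at 0.00, was -0.19 without the filter, -0.21 with gate markers at 2 UMIs, -0.055 with gate order, -0.16 with the stricter hashtag quantile, -0.11 with no upper limit on genes, -0.32 with thinning, -0.25 in the short cohort alone and -0.33 to 0.32 with an arm left out, lowest without the long anti-MIF arm. Ctsb in pDCs was -0.17 without the filter and Ctsz in pDCs 0.036 without TMM. Ifi30 in C1qb-gated cells was -0.055 without the filter and -0.00245 to 0.093 with an arm left out. For anti-MIF, Ctsc was -0.018 with the stricter hashtag quantile, -0.073 with thinning and -0.055 to 0.11 with an arm left out, and Cst3 was 0.0097 without TMM, 0.11 with thinning, 0.021 in the short cohort alone and -0.14 to 0.083 with an arm left out. The cause of these changes was not tested.

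The labels number no replicates, and arms were the block of the gate comparisons. Without the arm block the counts were 3012 for T cells, 1840 for pDCs, 2814 for mature DCs, 1399 for cDC1s and 2075 for the C1qb comparison. pDC and cDC1 sums rest on arms of 5 to 13 cells, and recovery of known differences was not simulated there.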

Other observations

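Cells of the monocyte/macrophage gate that held UMIs of both C1qb and Ly6c2 (217 long, 325 short) entered neither side of the C1qb comparison. Ctss, the invariant chain protease, was 2979 ± 360 CPM in them (SD, n = 8 arms), beside 2491 ± 232 CPM in C1qb-gated and 2132 ± 332 CPM in Ly6c2-gated cells. Ctsc was 1447 ± 194 CPM, beside 1266 ± 193 and 1109 ± 153 CPM, and Lgmn 798 ± 150 CPM, between 1014 ± 220 and 445 ± 71.1 CPM. Their median depth was 12301 UMIs per cell in the long and 7986 in the short cohort, against 12279 and 5216 in C1qb-gated and 9765 and 6713 in Ly6c2-gated cells. These differences were not tested.

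Lgmn in monocytes/macrophages of the 5th hashtag was 647 CPM in the long and 529 CPM in the short cohort, within the range of the 8 labelled arms (449 to 1098 CPM).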
